A study of Mus musculus with 12 samples.

Results

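The genes of 5 secreted immune factors, the chemokines *Ccl22*, *Ccl24*, *Cxcl11* and *Pf4* and the cytokine *Il18*, were followed in the thymus of WT and *Axl-/-Mertk-/-* mice. They were taken by symbol from the deposited table, which holds 479 genes, and all 5 were found in it. *Cxcl11* is counted as a secreted factor only by its transcript annotated as coding. The study sequenced total RNA of whole thymus from 12 mice aged 1 month. Each genotype had 6 mice, of which 3 were males and 3 females. The mutants lacked both receptor genes from the germline and in every cell type, their line had been crossed onto C57BL/6 for many generations, and WT and mutant lines were kept in separate housing, so housing and genotype cannot be told apart. Levels are given as FPKM, the reads on the exons of a gene per kilobase after correction for library depth, recovered from the deposited log2(FPKM + 5).

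Axl and Mer are receptor tyrosine kinases that macrophages use to bind, through bridging ligands, the phosphatidylserine exposed on apoptotic cells. Chemokines are small secreted proteins that guide leukocytes through G protein-coupled receptors, and they are named for the spacing of their first cysteines, adjacent in the CC family and separated by another residue in the CXC family. In the thymus they steer precursors and maturing thymocytes between cortex and medulla and attract dendritic cells and other leukocytes. Interleukin 18 is a cytokine of the interleukin 1 family, made as an inactive precursor that an inflammasome caspase cleaves behind an aspartate, and it drives interferon gamma production by T cells and NK cells.

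*Ccl22*, *Ccl24*, *Cxcl11* and *Il18* were lower in the *Axl-/-Mertk-/-* thymus, at 54.9%, 41.6%, 61.6% and 47.2% of their WT means. *Pf4* was higher, at 365% of the WT mean. For *Ccl22*, *Cxcl11*, *Il18* and *Pf4*, no mutant mouse reached the range of the WT mice, whereas the *Ccl24* ranges overlapped. In the table, 39.0% of genes showed no overlap of the genotypes, 26.3% lower and 12.7% higher. The deposited genes had been selected, since mean FPKM differed between genotypes by a log2 ratio beyond 0.5 in size for 469 of the 479. Tests on it therefore describe how large each difference was against the spread between mice and are no independent evidence that the gene changed. In whole tissue, fewer cells of a type and less RNA per cell cannot be told apart.

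The coding sequences below show what sets the members apart as proteins, where *Cxcl11* is given by its transcript annotated as coding. They are read 5′ to 3′ along the coding strand from GENCODE vM21 transcripts on mm10 (GRCm38), and all are exonic. The first 4 are shown for the family signature, with the 2 signature cysteine codons in capitals. In *Ccl22* (chr8:94746916-94746957, plus strand) and *Ccl24* (chr5:135572647-135572688, minus strand) the codons were adjacent. In *Cxcl11* (coding transcript, chr5:92361282-92361326, minus strand) and *Pf4* (chr5:90772926-90772970, plus strand) another codon lay between them. They are codons 36 and 37 of *Ccl22*, 33 and 34 of *Ccl24*, 29 and 31 of *Cxcl11*, and 44 and 46 of *Pf4*.
Ccl22: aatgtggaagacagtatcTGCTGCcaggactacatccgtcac
Ccl24: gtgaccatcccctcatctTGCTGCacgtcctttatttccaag
Cxcl11: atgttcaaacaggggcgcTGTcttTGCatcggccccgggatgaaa
Pf4: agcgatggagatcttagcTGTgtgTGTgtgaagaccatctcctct

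The fifth stretch comes from *Il18* (transcript of 860 bases, chr9:50576699-50577798, plus strand, across an intron) and is shown for the processing site of the precursor. The capitals mark the aspartate codon, codon 35 of 192, behind which the caspase cuts.
Il18: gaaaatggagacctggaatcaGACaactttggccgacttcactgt

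*Cxcl11* differs from the others in its annotation, which calls the gene a polymorphic pseudogene. Its start was therefore printed from both annotated transcripts (chr5:92361327-92363214, minus strand, across an intron), with the start codon in capitals. The transcript annotated as coding leaves out 2 reference bases, chr5:92363177-92363178, which are in capitals in the transcript annotated as a pseudogene, as bases 37 and 38 from the start codon. From the same start, the reading frame ran for 99 codons before a stop in the coding transcript and for 36 codons in the pseudogene transcript, which follows the reference genome without the gap. The values for *Cxcl11* are thus levels of its RNA, and whether a full protein was made was not measured. Whether the WT mice or the mutants, whose background strain is named above, carried the 2 reference bases was not tested. In a mouse that carries them, the frame from this start ends after 36 codons, short of the 99 of the coding transcript.
Cxcl11 coding transcript: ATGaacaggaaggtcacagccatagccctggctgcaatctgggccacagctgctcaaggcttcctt
Cxcl11 pseudogene transcript: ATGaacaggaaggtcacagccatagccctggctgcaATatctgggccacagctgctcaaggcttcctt

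The genes lie on chromosomes 5, 8 and 9 and so away from *Axl* on chromosome 7 and *Mertk* on chromosome 2. *Pf4* (chr5:90772435-90773383, plus strand) and *Cxcl11* (chr5:92359544-92365485, minus strand) were separated by 1586 kb, and *Ccl24* lies on the same chromosome at chr5:135569937-135573049, minus strand. *Ccl22* (chr8:94745590-94751699, plus strand) and *Il18* (chr9:50554827-50581840, plus strand) are alone among the members on their chromosomes. Exons of *Cxcl11* overlap those of 1 gene on the opposite strand, *Gm2673*, and whether reads were counted by strand is not given in the sources used here, so reads of that gene cannot be told apart from its own. No exon of another annotated gene overlaps those of the other 4 genes.

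The genotype was visible in *Axl* itself, with 11.9 to 16.9 FPKM in WT and 1.92 to 2.45 FPKM in *Axl-/-Mertk-/-* mice. *Mertk* was not analysed here. Estimated depth was 18835000 to 24480000 reads per library in WT and 19330000 to 23815000 in the mutants. WT male 210 carries an extra b at the end of its label, and this mouse was the lowest WT mouse for 6 of the 8 chemokine ligands of the table, so the genotype differences that rest on it are given with and without it. Over the whole table it was the lowest WT mouse for 25.1% of genes. Another WT male was the highest WT mouse for 5 of the 8 ligands and for 47.8% of all genes, and it also had the highest *Axl*. Without that male, the differences of the 5 genes all kept an adjusted p under 0.05 in limma, while among chemokine ligands and receptors those of *Ccl17*, *Cxcl2*, *Ccr6* and *Cxcr5* did not. Defining markers of thymocytes were not analysed here. Of 20 genes listed for thymocytes and regulatory T cells, the table holds *Foxp3* and *Ctla4*, both markers of regulatory T cells, at 53.1% and 157% of WT.

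**Figure D1:**
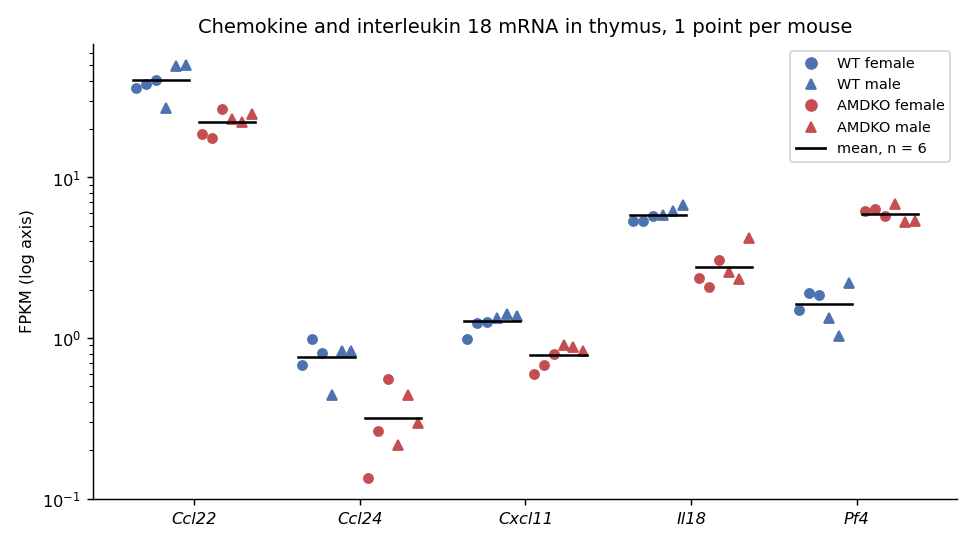
FPKM of the 5 genes on a log axis, with 1 point per mouse (circles females, triangles males, blue WT, red *Axl-/-Mertk-/-*, labelled AMDKO) and a black line at the mean of 6 mice. *Ccl22*, *Cxcl11* and *Il18* in the mutants lie below every WT mouse, *Pf4* lies above every WT mouse, and the *Ccl24* ranges overlap.

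*Ccl22*, the macrophage-derived chemokine that signals through Ccr4, was the most abundant of the 5 in both genotypes. WT mice had 26.9 FPKM at the lowest, 39.2 at the median and 50.4 at the highest, and *Axl-/-Mertk-/-* mice had 17.7, 22.6 and 26.5 FPKM. The groups were separated by WT male 210 at 26.944 FPKM and a mutant female at 26.504 FPKM, and the other 5 WT mice had at least 36.2 FPKM. *Ccl22* fell from 40.3 ± 8.83 FPKM (SD, n = 6) to 22.1 ± 3.46 FPKM (SD, n = 6), a log2 difference in log2(FPKM + 5) of -0.72 ± 0.14 (SE, limma adjusted p = 0.00142). Without WT male 210 the WT mean was 42.9 ± 6.64 FPKM (SD, n = 5) and the difference was -0.84 ± 0.085 (SE, limma adjusted p = 7.26e-05). The mutant mean was 55.1% of the WT mean in males and 54.7% in females.

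*Ccl24*, an eotaxin that attracts eosinophils through Ccr3, was the least abundant of the 5. WT mice had 0.444 FPKM at the lowest, 0.820 at the median and 0.989 at the highest, and *Axl-/-Mertk-/-* mice had 0.134, 0.279 and 0.554 FPKM. WT male 210, at 0.444 FPKM, lay within the mutant range, and the other 5 WT mice had at least 0.675 FPKM, above every mutant. *Ccl24* fell from 0.764 ± 0.186 FPKM (SD, n = 6) to 0.317 ± 0.154 FPKM (SD, n = 6), with a log2 difference in log2(FPKM + 5) of -0.12 ± 0.026 (SE, limma adjusted p = 0.00267). Leaving out WT male 210 gave -0.13 ± 0.023 (SE, limma adjusted p = 0.00103).

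The *Ccl24* values rest on few reads. The transcript length was fitted to give whole reads, at 1289 bases against an annotated 1295. With it, each of the 12 values was a whole number of reads within 0.1 read at the estimated depths. There were 14 to 25 reads per WT mouse and 4 to 17 per mutant. Summed over mice these were 133 and 53 reads, and per unit of depth the mutants had 42.1% of the WT level, with an exact 95% interval from counting error of 30.0% to 58.3%. The SD between mice was 1.15 times that of counting error in WT and 1.44 times in the mutants.

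*Cxcl11*, an interferon-inducible gene whose full protein is a ligand of Cxcr3, showed the smallest relative fall. WT mice had 0.988 FPKM at the lowest, 1.30 at the median and 1.41 at the highest, and *Axl-/-Mertk-/-* mice had 0.601, 0.816 and 0.908 FPKM. Every mutant lay below every WT mouse, by a margin narrower than the range of either genotype. *Cxcl11* fell from 1.27 ± 0.153 FPKM (SD, n = 6) to 0.783 ± 0.121 FPKM (SD, n = 6), with a log2 difference in log2(FPKM + 5) of -0.12 ± 0.013 (SE, limma adjusted p = 9.36e-05). These were 36 to 52 reads per WT mouse and 22 to 31 per mutant. The spread between mice was below that of counting error in both genotypes, at 0.812 and 0.795 times its SD. The transcript length that best turned the FPKM into whole reads was 1585 bases, against an annotated 1581 bases for the coding and 3794 bases for the pseudogene transcript. Only lengths within 3% of an annotated transcript were tried. A fitted length reflects the length by which the normalization divided the reads, so it does not show which transcript the mice made.

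*Il18* was the second most abundant gene in WT mice. WT mice had 5.36 FPKM at the lowest, 5.83 at the median and 6.75 at the highest, and *Axl-/-Mertk-/-* mice had 2.09, 2.48 and 4.18 FPKM. The groups did not overlap, and a mutant male at 4.18 FPKM was nearest to the WT mice. *Il18* fell from 5.88 ± 0.524 FPKM (SD, n = 6) to 2.77 ± 0.763 FPKM (SD, n = 6), with a log2 difference in log2(FPKM + 5) of -0.49 ± 0.053 (SE, limma adjusted p = 7.58e-05). The mutant mice varied by 1.97 times the SD that counting error gives, and the WT mice by 0.955 times. Read numbers were 87 to 136 per WT mouse and 37 to 76 per mutant.

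*Pf4*, or Cxcl4, is a CXC chemokine stored in platelet granules and made by megakaryocytes, and it is also transcribed in tissue macrophages. WT mice had 1.03 FPKM at the lowest, 1.67 at the median and 2.19 at the highest, and *Axl-/-Mertk-/-* mice had 5.31, 5.98 and 6.83 FPKM. The lowest mutant was far above the highest WT mouse, and the mutants varied little among themselves. *Pf4* rose from 1.63 ± 0.427 FPKM (SD, n = 6) to 5.96 ± 0.601 FPKM (SD, n = 6), with a log2 difference in log2(FPKM + 5) of 0.73 ± 0.047 (SE, limma adjusted p = 2.24e-06). The mice had 14 to 30 reads in WT and 60 to 86 in the mutants, and the ratio of reads per unit of depth was 3.68, with an exact 95% interval from counting error of 3.02 to 4.50. Ranked by the ratio of mean FPKM, *Pf4* was the 6th of the 166 genes with a higher mean in the mutants, while *Ccl24*, *Il18*, *Ccl22* and *Cxcl11* ranked 29, 57, 114 and 171 among the 313 genes with a lower mean.

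All 5 genes passed an adjusted p of 0.05 in limma with sex as a covariate, 4 lower and 1 higher, where 95.0% of the table passed in either direction (61.8% lower and 33.2% higher). Past the log2 fold change of 0.5 of the study as well, *Ccl22* fell and *Pf4* rose, 2 of the 5 genes, where 6.05% of the table passed (3.13% lower and 2.92% higher). Groups that did not overlap were found for 3 genes that were lower and for 1 that was higher. The median log2 ratio of mean FPKM was -0.86 over the 5 genes and -0.56 over the table. The two-sided exact permutation test gave 0.00216, the smallest p that 924 arrangements of 6 against 6 mice allow, for every gene but *Ccl24*, which had an exact p of 0.00433. After adjustment over the 479 genes these exact permutation p-values were 0.00554 and 0.00807, and 95.2% of the table passed 0.05.

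The constant of 5 in the deposited logarithm decided which genes passed the fold threshold. With log2(FPKM + 0.1) the limma differences were -0.85 ± 0.16 (SE) for *Ccl22*, -1.10 ± 0.23 for *Ccl24*, -0.64 ± 0.12 for *Cxcl11*, -1.09 ± 0.15 for *Il18* and 1.84 ± 0.16 for *Pf4*. All 5 then passed both thresholds, as did 80.4% of the table (50.9% lower and 29.4% higher). *Ccl22*, far above the constant, moved least between the scales, and the direction of each gene was the same at constants of 5, 1 and 0.1.

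**Figure D2:**
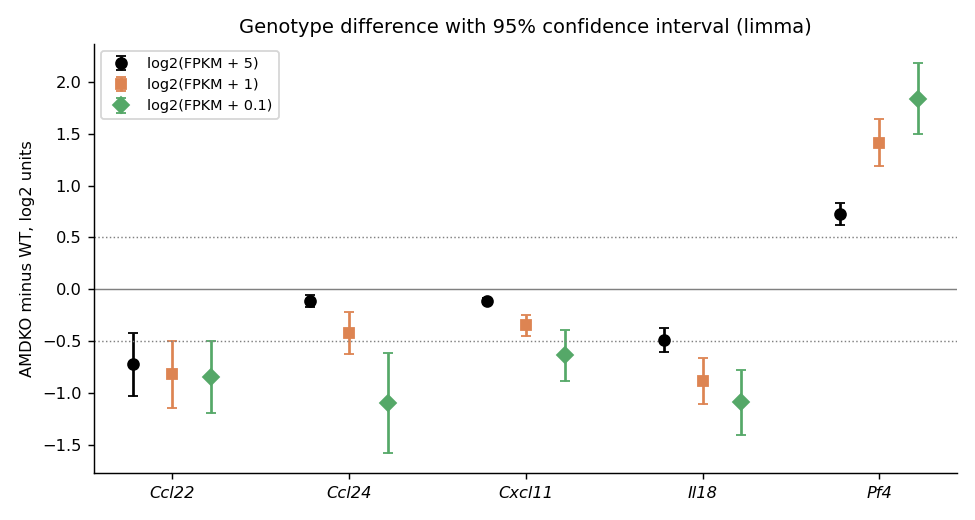
Limma difference of *Axl-/-Mertk-/-* (AMDKO) minus WT in log2 units for the 5 genes with constants of 5, 1 and 0.1 added to FPKM. Bars are 95% confidence intervals from 12 mice and dotted lines mark 0.5 in each direction. *Ccl24* moves from -0.12 to -1.10 and *Ccl22* from -0.72 to -0.85.

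The opposite changes altered the order of the levels. In WT mice the order was *Ccl22*, *Il18*, *Pf4*, *Cxcl11* and *Ccl24*. The WT ranges of *Pf4* and *Cxcl11* overlapped, with *Pf4* higher in 4 of 6 mice, and so did those of *Cxcl11* and *Ccl24*, with *Cxcl11* higher in 6 of 6. In the mutants the order was *Ccl22*, *Pf4*, *Il18*, *Cxcl11* and *Ccl24*, and no neighbours overlapped. *Il18* exceeded *Pf4* by 3.60-fold in the WT means, and *Pf4* exceeded *Il18* by 2.15-fold in the mutant means.

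Within each mouse, *Pf4* was 16.8% to 35.5% of *Il18* in WT, with a median of 30.0%. In the mutants it was 128% to 302%, with a median of 245%. *Pf4* as a share of *Ccl22* was 2.07% to 4.99% in WT and 21.5% to 35.7% in the mutants. These ratios could not overlap between the genotypes, since *Pf4* was by itself higher, and *Il18* and *Ccl22* by themselves lower, without overlap. Between factors that both fell, the ratios overlapped, as for *Il18* to *Ccl22* with 12.4% to 21.8% in WT and 10.6% to 16.9% in the mutants, and for *Ccl24* to *Ccl22* with 1.64% to 2.59% and 0.723% to 2.09%.

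**Figure D3:**
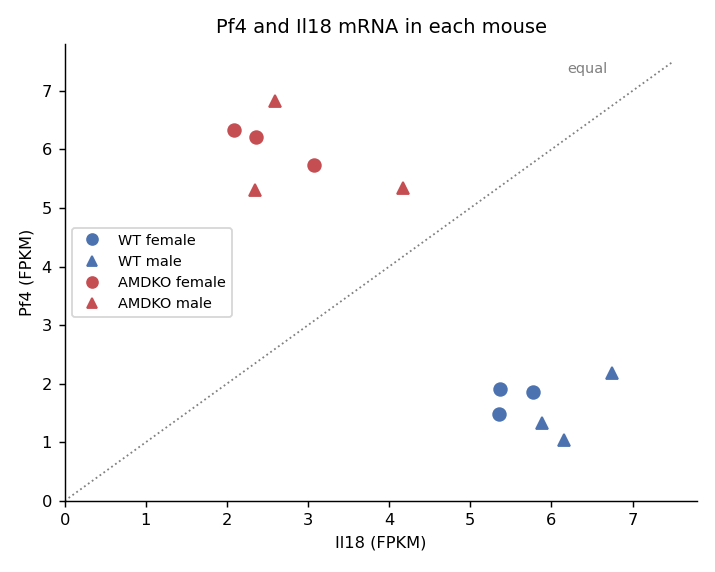
*Pf4* against *Il18* in FPKM, with 1 point per mouse (circles females, triangles males, blue WT, red *Axl-/-Mertk-/-*, labelled AMDKO) and a dotted line where both are equal. The 6 WT mice lie below the line with *Pf4* at 1.03 to 2.19 FPKM, and the 6 mutants lie above it with *Pf4* at 5.31 to 6.83 FPKM.

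The direction of each difference was the same in both sexes. In males the mutant means were 45.2% of WT for *Ccl24*, 63.6% for *Cxcl11*, 48.5% for *Il18* and 384% for *Pf4*, and in females they were 38.5%, 59.3%, 45.6% and 348%. The interaction of sex and genotype, in log2(FPKM + 5) as the male minus the female difference, ranged from -0.0076 for *Il18* to 0.056 for *Ccl22* over the 5 genes, with limma adjusted p-values of 0.962 to 0.983. No gene of the table passed 0.05 for this interaction in limma, and 15 had an unadjusted p under 0.05. The 95% interval of the interaction ran from -0.58 to 0.69 for *Ccl22* and from -0.21 to 0.24 for *Pf4*. With 3 mice per sex and genotype, differences between the sexes within these bounds were therefore not excluded.

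*Cxcl11* was higher in males of both genotypes. WT males had 1.34 to 1.41 FPKM and WT females 0.988 to 1.27, and mutant males had 0.836 to 0.908 FPKM and mutant females 0.601 to 0.795, without overlap in either genotype. The sex term in log2(FPKM + 5), male minus female, was 0.048 ± 0.013 (SE) with an unadjusted limma p of 0.00472 and an adjusted p of 0.195, so it failed the correction. *Il18* showed the same order in WT mice, with 5.88 to 6.75 FPKM in males and 5.36 to 5.77 in females, while the mutant sexes overlapped. No gene of the table passed an adjusted p of 0.05 for sex in limma, and 69 had an unadjusted p under 0.05. The table holds almost only genes that differed by genotype, so this does not describe sex differences in the thymus at large.

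Among mice of 1 genotype, the 5 genes were not shown to vary together. Over the 10 pairs in each genotype, Pearson's r of log2(FPKM + 5) ranged from -0.067 to 0.74 in WT and from -0.59 to 0.73 in the mutants. In exact permutation tests of r adjusted over the 20 relations, the smallest p was 0.576, and 0 had an unadjusted p under 0.05. The highest r was that of *Cxcl11* and *Il18* in WT mice, at 0.74 (exact permutation p = 0.0847, n = 6) with Spearman's rho of 0.94 (exact p = 0.0167, adjusted 0.333), and r was 0.90 without the 2 mice farthest from the *Cxcl11* median. *Ccl22* and *Il18* in the mutants had r of 0.73 (exact permutation p = 0.0944, n = 6) and rho of 0.89 (exact p = 0.0333, adjusted 0.333), and r was 0.60 without the 2 farthest mice.

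The genes that followed each member most closely were sought over the 12 mice, among the other 478 genes, by Pearson's r of log2(FPKM + 5) after the genotype means were subtracted. The r given are the highest among these genes, and all genes of a mouse share its sex and its library, so these r are descriptions. *Il18* was most like *Spic*, which encodes a transcription factor of iron-recycling macrophages, at r = 0.94 and *Igfbp2*, an insulin-like growth factor binding protein, at 0.93. Spearman's rho was lower for both, at 0.81 and 0.82. *Spic* fell from 5.11 ± 0.883 to 2.31 ± 1.01 FPKM (SD, n = 6 each, limma adjusted p = 0.000781), and *Igfbp2* rose from 2.67 ± 0.694 to 5.42 ± 1.86 FPKM (limma adjusted p = 0.00188). *Ccl22* was most like *Eomes*, a transcription factor of NK and memory-like T cells, at r = 0.91 and *Serpina3g*, a serine protease inhibitor gene, at 0.90, at 62.5% and 68.7% of WT. Spearman's rho was 0.89 and 0.95. *Eomes* had a limma adjusted p of 0.0339, lost in 8 of 12 fits with a mouse left out (adjusted p of up to 0.0752).

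*Ccl24* was most like another chemokine gene, *Cxcl2*, at r = 0.82 and *Fcer2a*, the low-affinity IgE receptor of B cells, at 0.80. Spearman's rho was 0.84 and 0.62. *Cxcl11* was most like *Skint10* at r = 0.90 and *Wfdc17* at 0.84, with Spearman's rho of 0.92 and 0.64. *Skint10* fell to 68.0% of WT while *Wfdc17* rose to 378%. Within a genotype *Cxcl11* varied by only 0.812 (WT) and 0.795 (mutants) times the SD of counting error. Its r therefore do not show that these genes varied together. The highest r of *Pf4* were lower, with *Klra1*, an NK receptor gene, at r = 0.75 and *Cd209a*, a C-type lectin of dendritic cells, at 0.72. Spearman's rho was 0.66 and 0.75. Both genes were lower in the mutants, at 68.0% and 53.1% of WT. *Pf4* itself varied by 1.22 times the SD of counting error in WT and by 0.873 times in the mutants.

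The table holds 8 of the 41 chemokine ligand genes on the list used, the 4 members and *Ccl3*, *Ccl8*, *Ccl17* and *Cxcl2*. In limma on log2(FPKM + 5), 5 of the 8 were lower and 3 higher with an adjusted p under 0.05, that is 62.5% and 37.5% against 61.8% and 33.2% of the table. *Ccl17*, the other Ccr4 ligand, lies 58.8 kb from *Ccl22*. It had 3.28 to 8.78 FPKM in WT and 2.88 to 4.76 in the mutants, overlapping, and fell from 5.67 ± 2.28 to 3.60 ± 0.727 FPKM (SD, n = 6 each, limma adjusted p = 0.0343). As a share of *Ccl22* in the same mouse, it was 10.3% to 17.4% in WT and 13.3% to 21.6% in the mutants.

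*Cxcl2*, a neutrophil chemoattractant that lies 130.5 kb from *Pf4*, moved the other way from it. It fell from 1.13 ± 0.401 to 0.651 ± 0.240 FPKM (SD, n = 6 each, limma adjusted p = 0.0324), with overlapping ranges of 0.567 to 1.59 and 0.394 to 1.05 FPKM. *Ccl3*, an inflammatory CC chemokine, rose from 0.658 ± 0.234 to 1.62 ± 0.552 FPKM (limma adjusted p = 0.00411). Its ranges of 0.259 to 0.922 and 0.901 to 2.42 FPKM overlapped through 1 WT male and 1 mutant male. *Ccl8*, a monocyte chemoattractant, rose from 7.04 ± 2.72 to 10.1 ± 1.997 FPKM (limma adjusted p = 0.0377), with overlapping ranges of 3.78 to 11.3 and 7.86 to 13.04 FPKM. Its adjusted p in the exact permutation test was 0.0522 and missed the threshold.

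Without WT male 210, *Ccl8* had an adjusted p of 0.0610 in limma, and 5 ligands were lower and 2 higher, where 62.0% of the table was lower and 31.7% higher. *Ccl17* then had an adjusted p of 0.00261 at 58.6% of the WT mean. Ligands whose genotypes did not overlap were 3 of 8 with all mice, where 39.0% of the table did not overlap, and 4 of 8 without this mouse, where 46.6% did not, the addition being *Ccl24*. With each of the 12 mice left out in turn, *Ccl8* and *Cxcl2* lost the limma call in 7 fits and *Ccl17* in 8, with an adjusted p of up to 0.0807. *Pf4* had the highest level relative to WT of the 8 ligands, and *Ccl3* was next at 246%.

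**Figure D4:**
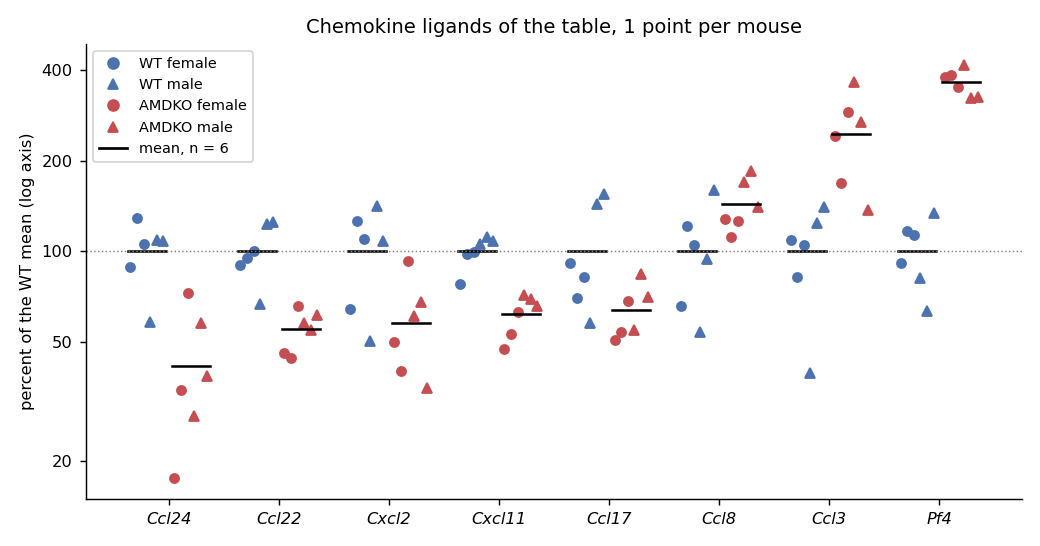
Each mouse's FPKM as a percent of the WT mean of that gene, on a log axis, for the 8 chemokine ligand genes of the table (circles females, triangles males, blue WT, red *Axl-/-Mertk-/-*, labelled AMDKO, black lines means of 6 mice). Mutant means run from 41.6% for *Ccl24* to 365% for *Pf4*, and *Ccl8*, *Ccl17*, *Cxcl2*, *Ccl3* and *Ccl24* overlap between genotypes.

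Of 26 chemokine receptor genes listed, 6 were in the table, and 3 were lower and 3 higher with a limma adjusted p under 0.05, where 95.0% of the table passed. *Ccr3*, the receptor for Ccl24, fell with its ligand from 0.285 ± 0.0573 to 0.156 ± 0.0551 FPKM (SD, n = 6 each, limma adjusted p = 0.0107). The WT mice had 0.223 to 0.356 FPKM and the mutants 0.079 to 0.218, without overlap but by a narrow margin. In the table, 39.0% of genes did not overlap. *Ccr3* ranked 430 of the 479 genes by mean level, so its values are low, and its reads were not estimated. *Ccr6* fell to 63.6% of WT (limma adjusted p = 0.0357). *Cxcr5*, the B cell follicle receptor, was at 69.6% of WT with overlapping ranges, with an adjusted p of 0.0439 in limma and of 0.0583 in the exact permutation test. *Ackr4*, a scavenger of the Ccr7 and Ccr9 ligands, rose from 2.25 ± 0.639 to 4.59 ± 0.826 FPKM (limma adjusted p = 0.000426), *Cx3cr1* rose to 174% and *Ackr1*, a scavenger of inflammatory chemokines, to 173%. With a mouse left out, *Ccr6* lost its limma call in 7 of 12 fits and *Cxcr5* in 8, with an adjusted p of up to 0.0973. The receptors of the other members, *Ccr4* for Ccl22, *Cxcr3* for Cxcl11 and *Il18r1* for interleukin 18, were not analysed here.

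The interleukin 18 pathway list had 3 of 35 genes in the table. Beside *Il18*, *Casp4*, which encodes the inflammatory caspase that senses cytosolic lipopolysaccharide, fell from 4.91 ± 0.861 to 3.06 ± 0.770 FPKM (SD, n = 6 each, limma adjusted p = 0.00353), and its WT range of 4.18 to 6.30 FPKM did not meet the mutant range of 2.37 to 4.103. *Mefv*, which encodes the inflammasome sensor pyrin, rose from 0.597 ± 0.155 to 0.847 ± 0.190 FPKM (limma adjusted p = 0.0324), a call lost in 6 of 12 fits with a mouse left out (adjusted p of up to 0.0708). Of 54 interferon-induced genes listed, the table held *Cxcl11* and *Ifi205*, a gene of the cytosolic DNA sensor family. *Ifi205* fell from 3.69 ± 0.821 to 2.42 ± 0.225 FPKM (limma adjusted p = 0.00255), without overlap. Over the table, 95.0% of genes had a limma adjusted p under 0.05 and 39.0% did not overlap, so neither trait sets *Casp4* or *Ifi205* apart. None of 64 other interleukin and cytokine genes listed was in the table. Since the genes of the table had been selected, their absence does not show that they were unchanged. By RT-qPCR, the study reported higher mRNA of several inflammatory cytokines, *Ifng* among them, in the mutant thymus.

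Markers of cell types that could supply these factors moved as well. Of 21 macrophage markers, 12 were in the table, 9 lower and 3 higher (*Cx3cr1*, *Trem2* and *Gpnmb*) with a limma adjusted p under 0.05. By the same limit, 61.8% of the table was lower and 33.2% higher. The summed level of the 12 was 154 to 238 FPKM in WT and 90.1 to 140 in the mutants. The most abundant were *C1qa*, with means of 84.4 and 59.6 FPKM and overlapping ranges, and *Vcam1*, with 51.0 and 31.0 FPKM and no overlap. Of 22 dendritic cell markers, 3 were in the table, *Cd209a*, *Ccl17* and *Apol7c*, all lower and each with overlapping ranges. Their sums overlapped too, at 6.59 to 12.7 FPKM in WT and 4.17 to 7.27 in the mutants, with *Ccl17* the most abundant. By flow cytometry, the study found no significant difference between these genotypes in thymic dendritic cell subsets. With the same method it reported a strong loss of highly phagocytic macrophages from the mutant thymus at this age. *Ccl17* and *Cx3cr1* are on a chemokine list too, and *Axl* is among the macrophage markers. The part of these cells in the lower *Ccl22*, *Ccl24*, *Cxcl11* and *Il18* was not tested.

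Beside the higher *Pf4*, the megakaryocyte and platelet list had 1 other gene of its 18 in the table. This was *Clec1b*, the platelet receptor for podoplanin, which fell from 2.08 ± 0.626 to 0.918 ± 0.479 FPKM (SD, n = 6 each, limma adjusted p = 0.0045), with 1.66 to 3.26 FPKM in WT and 0.297 to 1.48 in the mutants. Beside the lower *Ccl24* and *Ccr3*, the eosinophil gene *Ear2* fell from 8.46 ± 1.36 to 4.52 ± 1.64 FPKM (limma adjusted p = 0.00204), the second of 2 genes in the table out of 17 listed. No marker of the monocyte, neutrophil or erythroid lists was in the table, and none of the 26 markers it holds was at 0 in any mouse. The part of these cells in the results was not tested.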

How the data were processed

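The deposited table gives, per the file headers, 1 column per mouse, and its values are log2(FPKM + 5). From 500 ng RNA, the authors prepared libraries of stranded mRNA, read 50 bases from 1 end, mapped reads to mm10 with STAR 2.5.3a, and normalized exon reads to FPKM with HOMER 4.10.4. The submitters' processing notes also name CASAVA 1.8.2. The rule that selected the 479 genes is not given in the sources used here. The authors tested raw counts with DESeq2, with sex as a covariate, and raw counts were not used here.

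FPKM were recovered by undoing the logarithm. Genotypes were compared on the deposited log2 values with limma (version 3.58.1, R 4.3.3, moderated test of a linear model with a sex term, Benjamini-Hochberg over 479 genes), with the study's thresholds of 0.05 and 0.5. The fit was tested on simulated data. Single genes were also compared by two-sided exact permutation tests. Mice were grouped by the labels, each as 1 replicate, and none was left out. Labels do not say whether mice were littermates. Python 3.11.15, numpy 2.4.6 and scipy 1.17.1 were used.

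Since FPKM rise in steps of 1 read, library depth could be estimated, with 131 transcripts, and disjoint sets of these differed by at most 0.146%. For the reads of a gene, the length within 3% of an annotated transcript that brought its values closest to whole numbers was used. Closeness to whole reads was thus fitted and is no separate check. Reads of *Ccl22* could not be resolved, with 7 of 12 values within 0.1 of a whole number. Intervals cover counting error only. Alternatives were constants of 1 and 0.1, a mean of at least 1 FPKM, no sex covariate, an intensity trend, a fold threshold of 1, each sex alone, permutation within sex, and each mouse left out. A fit without a constant, over the 475 genes with no value at 0, was chosen after seeing the data.

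The members, gene lists and tests were chosen with earlier results of these data known. Named are the 5 members, the table's genes of the chemokine ligand, chemokine receptor, interleukin 18 and interferon lists, the 2 genes most like each member, and *Axl*. Among the markers, *Clec1b*, *Ear2*, *C1qa*, *Vcam1* and those higher in the mutants were named after their values were seen. The remaining marker lists had these genes in the table, B cells 1 of 10, NK and innate-like T cells 3 of 18, and thymic epithelium and stroma 1 of 17.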

Additional observations from a re-analysis of the deposited data

Results flagged for a closer look

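*Axl*, the check of the genotype labels, had 1 WT mouse far from the others. A WT male had 16.889 FPKM against 11.9 to 13.5 FPKM in the other 5 WT mice, and the gap to its neighbour was 0.667 of the whole WT range. Over 19 named genes in both genotypes, 38 groups of 6 mice were examined in this way, and chance alone marks about 1 in 20. None of the 5 chemokine and interleukin genes had such a mouse in either genotype.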

How the results depend on the processing

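The direction of each of the 5 genotype differences was the same under every alternative that gave a value, and *Ccl24* gave none under a mean of at least 1 FPKM. In males alone, with 3 mice a genotype, *Ccl22* was at -0.70 (limma adjusted p = 0.0558) and *Ccl24* at -0.10 (adjusted p = 0.0693), and 3 of the 5 genes had an adjusted p under 0.05. Over all alternatives the adjusted p ranged from 7.26e-05 to 0.0558 for *Ccl22*, from 0.00059 to 0.0693 for *Ccl24* and up to 0.0211 for the others. The count past both thresholds was 2 with all mice, 5 with a constant of 0.1, 5 without a constant, 1 in males alone and 0 beyond a fold change of 1. It was 2 to 3 with a mouse left out, *Il18* being added without 1 mutant female (-0.51), the second highest mutant for *Il18*, or without the highest, a male (-0.53). All 5 kept an exact permutation adjusted p under 0.05, 0.00904 with arrangements within sex.

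The interactions, none of which passed, turned in sign. With a mouse left out they ranged from -0.21 to 0.21 for *Ccl22*, -0.0016 to 0.063 for *Ccl24* (the lowest value of both without WT male 210), -0.015 to 0.018 for *Cxcl11*, -0.049 to 0.089 for *Pf4* and -0.11 to 0.054 for *Il18*. With a constant of 0.1 they were 0.078 for *Cxcl11* and 0.056 for *Il18*. The cause was not tested. No paired analysis was possible because the genotypes share no mouse number. Depth limits *Ccl24* most.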
